A study of Rattus norvegicus with 12 samples.

Results

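Transport genes of the liver cell, 9 in all, are described here on 12 microarrays of cultured rat hepatocytes. They are the organic anion transporters Slc22a8 and Slc22a7, the organic anion transporting polypeptides Slco1a1, Slco1b2 and Slco2b1, and the ATP-driven pumps Abcc2, Abcc3, Abcb1a and Abcg2. Their probes were taken by gene symbol, older symbol or RefSeq accession, which gave 11 of the 41012 probes on the array, with 2 probes each for Slco2b1 and Abcc3 and 1 for each of the other genes. No probe was picked by a measured value, but the 9 genes were chosen with earlier results of these data known. All 11 passed the filter on dim probes, and 9 of them were well above background on all 12 arrays. The cells came from Sprague-Dawley rats aged 11 weeks. They were freed from the liver with collagenase, plated for a day in serum and kept for a further day without it. Male and female cells then received 0.01% ethanol as vehicle or 100 nM dexamethasone, a synthetic glucocorticoid, for 6 h. The 4 groups are therefore male vehicle, male dexamethasone, female vehicle and female dexamethasone, with 3 arrays each. The dose is written as 100 nm in the labels. The gender field says male for every sample, also for those titled female, and sex was therefore read from the sample titles. Nothing in the labels says that the arrays of a group came from separate rats or cultures, and the p-values measure the spread between arrays, which may be technical.

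Hepatocytes clear drugs, bile acids, steroid conjugates and bilirubin by moving them from the blood across the basolateral membrane, and then either into bile across the canalicular membrane or back into blood. Carriers of the Slc22a and Slco families take anions up from the blood, Abcc2, Abcb1a and Abcg2 pump drugs and conjugates into bile, and Abcc3 returns glucuronides to the blood. In rodents several of these genes are known to differ between the sexes under the pattern of growth hormone, and glucocorticoids are a common supplement of hepatocyte cultures.

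Each array probe is a single stretch of DNA, and what it reads can depend on where it lies in the transcript, so the probes behind the main results are printed first. Coordinates are on rat build rn3, per the deposited files, and the letters are the probe sequences as deposited. The Slc22a8 probe lies at chr1:211444489-211444548, on the + strand. The probes of Slco2b1 lie 755 bp apart on the - strand, at chr1:157071642-157071701 and chr1:157072397-157072456, and gave different responses. Those of Abcc3 lie 234 bp apart on the - strand, at chr10:83001283-83001342 and chr10:83001517-83001576. The Abcg2 probe spans chr4:87802630-87804206 on the + strand, 1577 bp for 60 bases of probe. No annotation of rn3 was used here to place the probes in exons or untranslated regions.
Slc22a8: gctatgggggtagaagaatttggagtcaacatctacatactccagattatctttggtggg
Slco2b1 probe 1: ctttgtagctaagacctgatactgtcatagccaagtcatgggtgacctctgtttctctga
Slco2b1 probe 2: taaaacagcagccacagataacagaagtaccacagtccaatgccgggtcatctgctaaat
Abcc3 probe 1: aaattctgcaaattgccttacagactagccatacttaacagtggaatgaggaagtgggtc
Abcc3 probe 2: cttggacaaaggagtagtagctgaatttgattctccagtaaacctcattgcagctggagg
Abcg2: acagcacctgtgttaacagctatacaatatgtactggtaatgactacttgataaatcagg

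The other probes lie on chromosome 9 (Slc22a7, 9936875 to 9937444), on chromosome 4 (Slco1a1, 179737811 to 179737870; Slco1b2, 179355911 to 179362588; Abcb1a, 21795859 to 21795918) and on an unplaced contig of chromosome 1 (Abcc2, 3595866 to 3595925). Promoters were taken from RefSeq on build GRCr8, from 250 bases before to 50 after the start of the gene, and 8 of the 9 genes were found there. The promoters of 3 genes are printed because a probe of each, for Slco2b1 probe 1 but not probe 2, was higher with dexamethasone in every vehicle-dexamethasone pair. Capitals mark exact matches, on either strand, to the letters searched. They are the glucocorticoid receptor hexamer AGAACA, read from the opposite strand, in Slco1a1 (at -133 from the start), the STAT5 motif TTCNNNGAA in Slco2b1 and Abcc2, and the NRF2 motif TGACNNNGC in Abcc2. These promoters lie at chr4:176681943-176682242 (- strand), chr1:163408016-163408315 (- strand) and chr1:252613625-252613924 (+ strand).
Slco1a1 promoter: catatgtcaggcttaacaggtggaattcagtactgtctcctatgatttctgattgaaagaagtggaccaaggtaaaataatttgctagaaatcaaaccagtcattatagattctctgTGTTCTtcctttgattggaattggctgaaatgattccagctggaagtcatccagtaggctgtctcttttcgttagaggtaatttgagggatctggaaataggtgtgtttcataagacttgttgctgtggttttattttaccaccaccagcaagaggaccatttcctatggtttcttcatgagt
Slco2b1 promoter: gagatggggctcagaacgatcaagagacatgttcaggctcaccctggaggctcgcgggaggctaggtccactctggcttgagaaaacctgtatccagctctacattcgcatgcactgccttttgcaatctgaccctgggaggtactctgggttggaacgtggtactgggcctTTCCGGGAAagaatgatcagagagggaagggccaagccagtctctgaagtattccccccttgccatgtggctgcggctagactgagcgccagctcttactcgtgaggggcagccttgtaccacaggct
Abcc2 promoter: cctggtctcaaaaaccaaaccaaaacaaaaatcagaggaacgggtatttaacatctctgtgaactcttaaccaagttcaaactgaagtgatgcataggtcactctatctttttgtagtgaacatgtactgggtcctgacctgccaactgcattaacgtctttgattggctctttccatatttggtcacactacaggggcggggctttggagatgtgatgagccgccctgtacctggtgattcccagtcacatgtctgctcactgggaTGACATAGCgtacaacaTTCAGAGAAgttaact

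Slco1b2 also held TTCNNNGAA, so 3 of 8 promoters did, against 8.68% of all 27457 promoters of the same length. AGAACA was in 1 of 8, against 20.1% of all, and TGACNNNGC in 1 of 8, against 12.2%. The full glucocorticoid response element, the HNF4 motif CAAAGTCCA and the motifs named DR1 and DR4, each searched on both strands, were in none of the 8, and in at most 0.375% of all promoters. AGAACA is a part of the full element. A match is a run of letters, and no match says only that these letters are not in this window.

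Levels are given as log2 of the processed signal relative to the 75th percentile of the array, so 0 is a signal brighter than 75% of the probes, and a difference of 1 is a doubling. Albumin read 7.22 to 7.89, and all 10 hepatocyte markers were above background on every array. The arrays lay on 3 slides. Male vehicle lay wholly on slide 1, together with replicate 1 of male dexamethasone. Both sexes met on slide 2 alone, as the other 2 male dexamethasone arrays and the first 2 female vehicle ones, and slide 3 was all female. Male vehicle stood apart, with 46.6% to 56.2% of probes well above background against 67.0% to 80.6% on the other arrays. Its median SD between arrays was 0.388 against 0.162 to 0.248. The 67.0% was male dexamethasone replicate 1, which also lay on slide 1. The median coefficient of variation between spots of one probe was 17.8% to 21.1% in male vehicle and 14.1% on that array. On the arrays of slides 2 and 3 it was 4.6% to 8.5%. Vehicle and dexamethasone arrays of the same sex and replicate number deviated together, with correlations of 0.27 to 0.459, and were also compared as 6 pairs. Same-numbered arrays of different sex correlated at 0.017 to 0.214, and the sample titles state no pairing. Male pair 1, on slide 1, and female pair 3, on slide 3, are the pairs that lie on a single slide. With slide as a block, the male response therefore sets 1 dexamethasone array, replicate 1, against the 3 male vehicle arrays. The female response sets the 3 dexamethasone arrays against 1 vehicle array, replicate 3. The label of sex was borne out by a probe for a transcript like Xist, which read 0.35 to 1.04 in female cells and -6.88 to -5.43 in male cells.

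Slc22a8 separated the sexes. A fit added after the data were seen compared vehicle and dexamethasone arrays in pairs. There Slco1a1, Slco2b1 probe 1 and Abcc2 rose with dexamethasone for the mean of both sexes, while Slc22a8 and Slco1b2 fell. In the fit of the 4 group means, limma called 1 of 11 probes between the sexes in vehicle (13.9% of all 30979 probes tested) and 1 of 11 in dexamethasone (3.01% of all), both of them Slc22a8. The dexamethasone response passed for 0 of 11 probes in males (10.2% of all) and 0 of 11 in females (3.79% of all), with 2 and 3 of the 11 at an unadjusted p under 0.05. Of the differences between the sexes in that response, 0 of 11 passed (0.107% of all), and 0 of 11 had an unadjusted p under 0.05. With the 6 pairs as blocks, 4 of 11 probes passed in males (15.8% of all), 3 of 11 in females (6.44% of all) and 5 of 11 for the mean of both sexes (19.8% of all). The difference of the response between the sexes passed for 0 of 11 in that fit (0.00323% of all), with 1 of 11 at an unadjusted p under 0.05. In 6 of 11 probes all 6 pairs differed the same way (24.4% of all). The 3 arrays of the groups compared did not overlap for 2 of 11 probes in males (25.5% of all), 4 of 11 in females (34% of all), 2 of 11 between the sexes in vehicle (31.3% of all) and 2 of 11 in dexamethasone (32.5% of all). The median male response over the 11 probes was -0.29, against -0.05 over all probes tested, and the median female response was 0.16, against -0.04. Between the sexes the median was -0.26 in vehicle, against -0.02 over all, and -0.0026 in dexamethasone, against 0.03. In RNA from a whole culture, fewer cells that express a gene and less of its RNA in each cell cannot be told apart.

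**Figure D1:**
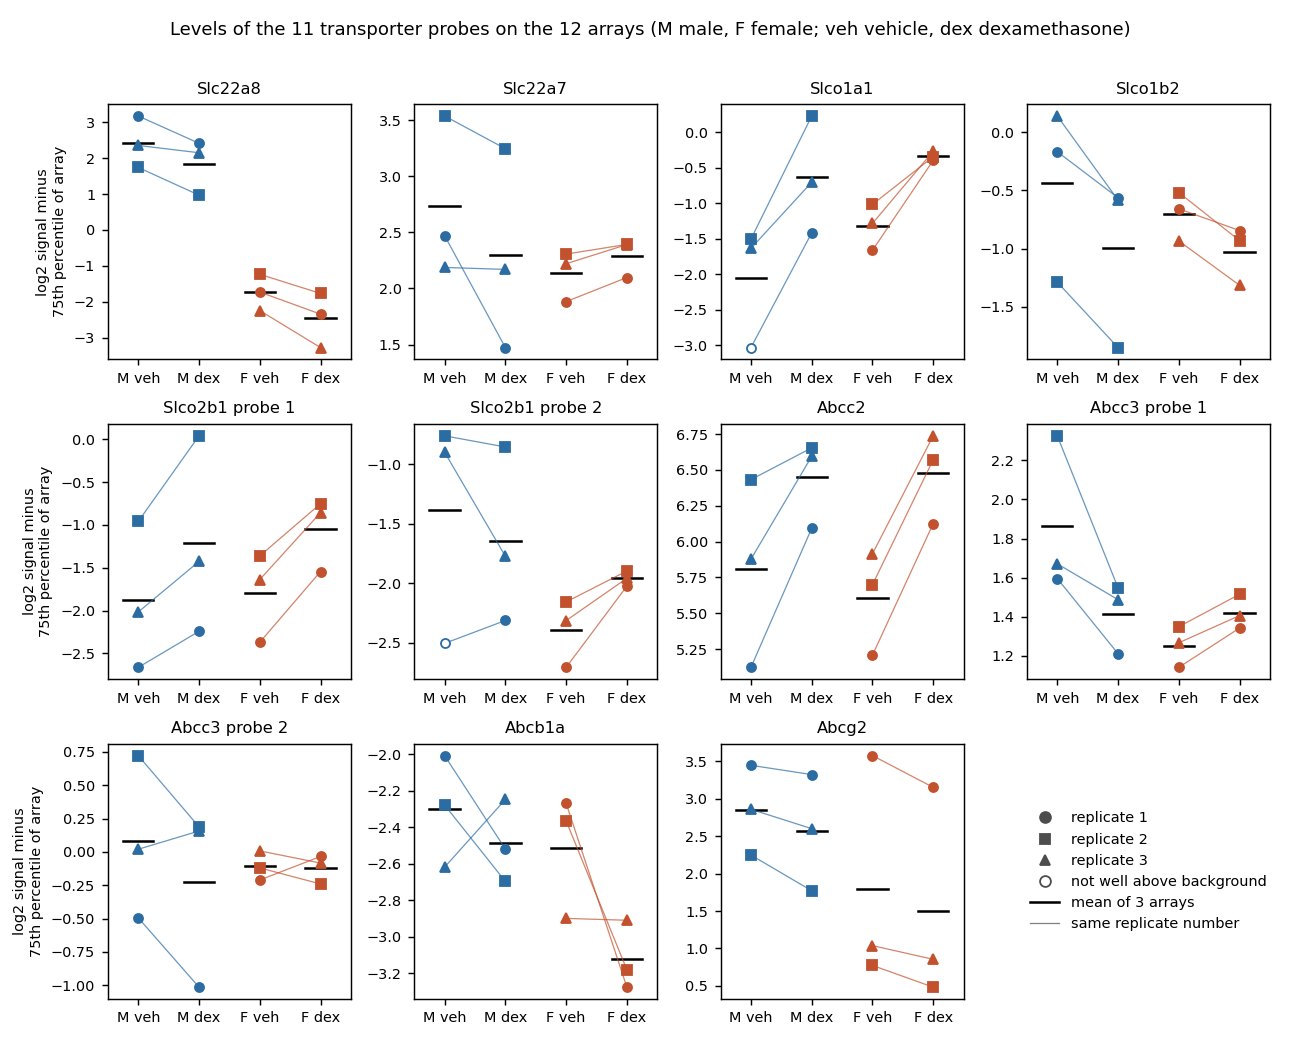
Level of each of the 11 probes (vertical axes, log2 signal relative to the 75th percentile of its array) for 12 arrays in 4 groups of 3; thin lines join vehicle and dexamethasone arrays of the same sex and replicate number, black bars are means of 3 arrays and open points are not well above background. Slc22a8 is between 0.97 and 3.17 on the male arrays and between -3.27 and -1.23 on the female ones, while each of the other probes overlaps between the sexes in vehicle, in dexamethasone or in both.

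Slc22a8, also called Oat3, exchanges organic anions such as steroid sulfates and drugs against dicarboxylates, and is best known from the kidney tubule. Male vehicle arrays read 3.17, 1.74 and 2.35 for replicates 1 to 3, and male dexamethasone arrays 2.41, 0.97 and 2.15. Female vehicle arrays read -1.73, -1.23 and -2.24, and female dexamethasone arrays -2.34, -1.77 and -3.27. All 6 male arrays were above all 6 female arrays, and the gap between the nearest of them was wider than the range within any group. Females were 17.8-fold lower than males in vehicle (log2 difference -4.16 ± 0.50, 95% interval -5.26 to -3.05, adjusted p = 0.00114). In dexamethasone they were 19.8-fold lower (log2 difference -4.30, interval -5.41 to -3.20, adjusted p = 0.00215). The call held with each of the 12 arrays left out in turn, with log2 differences from -4.74 to -3.78. It was lost when slide was a block, where the differences were -3.05 ± 0.93 (adjusted p = 0.177) and -3.26 ± 0.93 (adjusted p = 0.26). Slide 2 is the only slide with both sexes, and there the male dexamethasone arrays read 0.97 and 2.15 and the female vehicle arrays -1.73 and -1.23.

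Cell markers differed between the sexes too. The hepatocyte sum was 9.90 to 10.35 in female vehicle and 10.54 to 10.94 in male vehicle, without overlap, with 1 of 10 genes called lower. Stellate and fibroblast markers were called higher in females for 5 of 9 genes in vehicle (median difference 2.23) and 2 of 9 in dexamethasone (0.81, with 3.01% of all probes called). On the male vehicle arrays 5 to 7 of these 9 genes were above background, against 9 on each female vehicle array. Their sum was 6.97 to 7.23 in female vehicle and 2.79 to 7.04 in male vehicle. The part of this in the sex difference of Slc22a8 was not tested.

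Slc22a8 was also lower with dexamethasone in all 6 pairs. The male pairs differed by -0.76, -0.77 and -0.20 and the female pairs by -0.62, -0.53 and -1.03. In the fit of group means the response did not pass in males (-0.58 ± 0.50, adjusted p = 0.503) or females (-0.73 ± 0.50, adjusted p = 0.563). The mean of both sexes fell by 0.65 ± 0.12 with the pairs as blocks (adjusted p = 0.0154). Neither sex passed alone in that fit (adjusted p = 0.0686 in males and 0.0613 in females). Without female pair 1 or female pair 3 the adjusted p of the mean was 0.0604 and 0.0647. With slide as a block in place of the pairs, the differences were -0.0087 in males and -0.22 in females. The response to dexamethasone was smaller than the distance between the sexes in every pair.

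**Figure D2:**
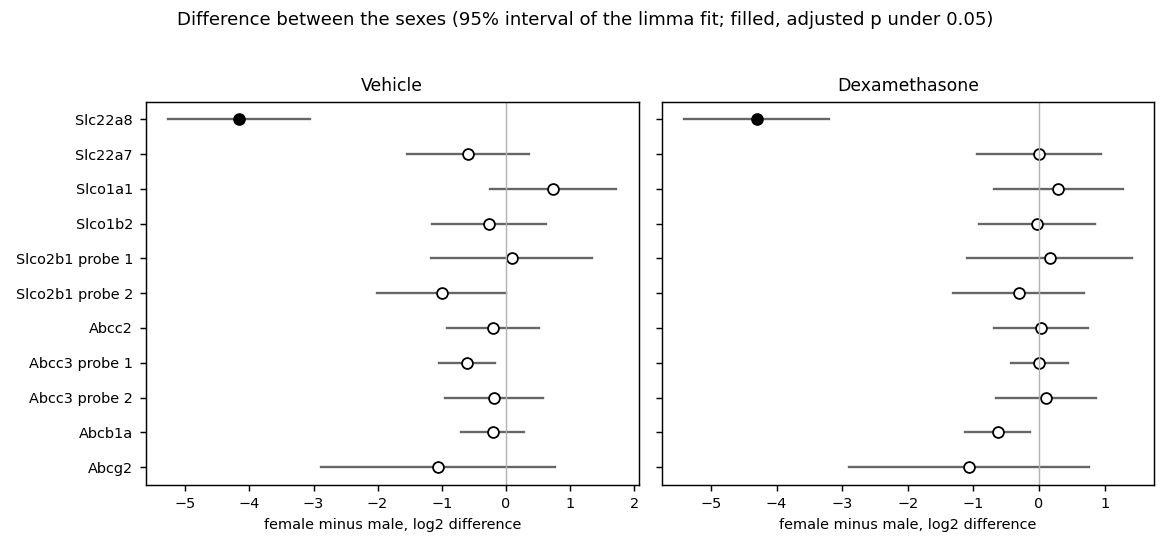
Female minus male log2 difference of each probe in vehicle (left) and dexamethasone (right), with the 95% interval of the limma fit; filled points have an adjusted p under 0.05. Slc22a8 stands at -4.16 and -4.30, and the intervals of the others reach from -2.89 to 1.72.

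Slc22a7, or Oat2, takes up nucleotide-related anions and drugs and is a liver form of this family. Slc22a7 in male vehicle read 2.47, 3.54 and 2.19, and in male dexamethasone 1.47, 3.25 and 2.17. Slc22a7 in female vehicle read 1.88, 2.31 and 2.22, and in female dexamethasone 2.10, 2.39 and 2.39. All 4 groups overlapped, and the SD between arrays was 0.71 and 0.89 in the male groups against 0.22 and 0.17 in the female ones. Slc22a7 in male cells differed by -0.999, -0.29 and -0.02 in the pairs, and in female cells by 0.21, 0.09 and 0.17. No comparison passed, and the sexes differed by -0.60 ± 0.43 in vehicle (adjusted p = 0.383) and by -0.0026 in dexamethasone (interval -0.95 to 0.94). The vehicle interval ran from -1.54 to 0.35. With a slide block the vehicle difference was -1.87 (interval -3.51 to -0.24, adjusted p = 0.259) and the dexamethasone one -0.54 (adjusted p = 0.881), and the male response was -1.26 (adjusted p = 0.274).

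Slco1a1, or Oatp1, takes up bile acids and steroid sulfates with little selectivity. In male vehicle the level was -3.03, -1.51 and -1.64, the first of them not well above background, and in male dexamethasone -1.42, 0.23 and -0.71. In female vehicle it was -1.66, -1.02 and -1.29, and in female dexamethasone -0.40, -0.35 and -0.27. In each sex every dexamethasone array was above every vehicle array, and female dexamethasone arrays lay within 0.13 of each other. The fit of group means gave a male difference of 1.42 ± 0.45 (adjusted p = 0.0678) and a female one of 0.98 ± 0.45 (adjusted p = 0.296). With the pairs as blocks Slco1a1 rose 2.68-fold in males (1.42 ± 0.20, adjusted p = 0.00932) and 1.98-fold in females (0.98 ± 0.20, adjusted p = 0.0408). Its mean over both sexes, 1.20 ± 0.14 (adjusted p = 0.00343), was the largest of the 11 probes. The single-slide pairs differed by 1.61 and 1.02. With slide as a block instead, the male difference was 0.64 (adjusted p = 0.636) and the female one 0.95 (adjusted p = 0.673). The sexes differed by 0.74 ± 0.45 in vehicle, female higher, and did not pass (adjusted p = 0.297). With slide as a block the sign turned, to -0.46 (adjusted p = 0.822).

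Slco1b2 is the liver OATP that takes up bilirubin conjugates, bile acids and statins. The male vehicle levels were -0.17, -1.29 and 0.14, and those in male dexamethasone -0.56, -1.85 and -0.58. The female vehicle levels were -0.66, -0.52 and -0.93, and those in female dexamethasone -0.85, -0.93 and -1.32. The groups overlapped, and replicate 2 was lowest in both male groups. The fit of group means gave a difference of -0.56 ± 0.40 in males (adjusted p = 0.41). In females it gave -0.33 ± 0.40 (adjusted p = 0.805), so neither passed. Each of the 6 pairs was lower with dexamethasone, by -0.72 to -0.19. Slco1b2 fell by 0.56 ± 0.13 in males with the pairs as blocks (adjusted p = 0.0339), against -0.33 ± 0.13 in females (adjusted p = 0.196). The mean of both sexes fell by 0.44 ± 0.09 (adjusted p = 0.0197), and this was lost without female pair 1, 2 or 3 (adjusted p = 0.0703 to 0.0877). With slide as a block in place of the pairs the differences were -0.12 in males and -0.10 in females.

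Slco2b1, or moat1 in the older naming, carries steroid sulfates and several drugs and is found in many tissues besides liver. Its probe 1 read -2.66, -0.96 and -2.02 in male vehicle and -2.24, 0.04 and -1.43 in male dexamethasone. In female vehicle it read -2.37, -1.36 and -1.64, and in female dexamethasone -1.54, -0.75 and -0.86. Vehicle and dexamethasone overlapped in both sexes, since replicate 2 was highest and replicate 1 lowest in all 4 groups, but every pair was higher with dexamethasone, by 0.42 to 1.00. In the fit of group means this probe did not pass in males (0.67 ± 0.57, adjusted p = 0.492) or females (0.74 ± 0.57, adjusted p = 0.617). With the pairs as blocks it rose by 0.67 ± 0.15 in males (adjusted p = 0.032) and 0.74 ± 0.15 in females (adjusted p = 0.0403). Probe 2 read -2.50, -0.76 and -0.90 in male vehicle, -2.31, -0.86 and -1.77 in male dexamethasone, -2.71, -2.16 and -2.31 in female vehicle and -2.02, -1.90 and -1.96 in female dexamethasone. It differed by -0.26 ± 0.22 in males (adjusted p = 0.446) and 0.43 ± 0.22 in females (adjusted p = 0.312) in the same fit. The rise therefore rests on probe 1. With slide as a block in place of the pairs, the male difference of probe 1 turned to -0.36 (adjusted p = 0.853) and its female one was 0.59 (adjusted p = 0.934). Between the sexes in vehicle, probe 2 differed by -1.003 ± 0.45 (adjusted p = 0.165), by -1.56 without male vehicle replicate 1 (adjusted p = 0.0186) and by -2.04 with a slide block (adjusted p = 0.289).

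Markers of Kupffer cells, the macrophages of the liver, were above background on all arrays for 11 of 11 genes. Their summed level, 5.39 to 6.79 over the 12 arrays, was highest in replicate 2 of each group, as Slco2b1 probe 1 was. This sum was higher with dexamethasone by 0.04 to 0.30 in the 6 pairs, while the median response of the 11 genes was -0.11 in males and -0.08 in females. Endothelial markers (8 genes, summed level -0.39 to 1.53) and lymphocyte markers (7 genes, -0.54 to 0.55) were higher in 3 pairs and lower in 3. Cholangiocyte markers (10 genes, 2.99 to 4.79) were lower with dexamethasone in 5 pairs. Stellate and fibroblast markers (9 genes) summed to 2.79 in male vehicle replicate 1 and to 5.04 to 7.23 on the other arrays. Hepatocyte markers summed to 9.90 to 10.94, and their sum was lower with dexamethasone in the 3 male pairs and higher in the 3 female ones. The median response of the hepatocyte genes was 0.305 in males and 0.27 in females. Hnf4a of the hepatocyte list and Slc10a2 of the cholangiocyte list are also in the lists of regulators and uptake carriers. The part of these cells in the transporter results was not tested.

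**Figure D3:**
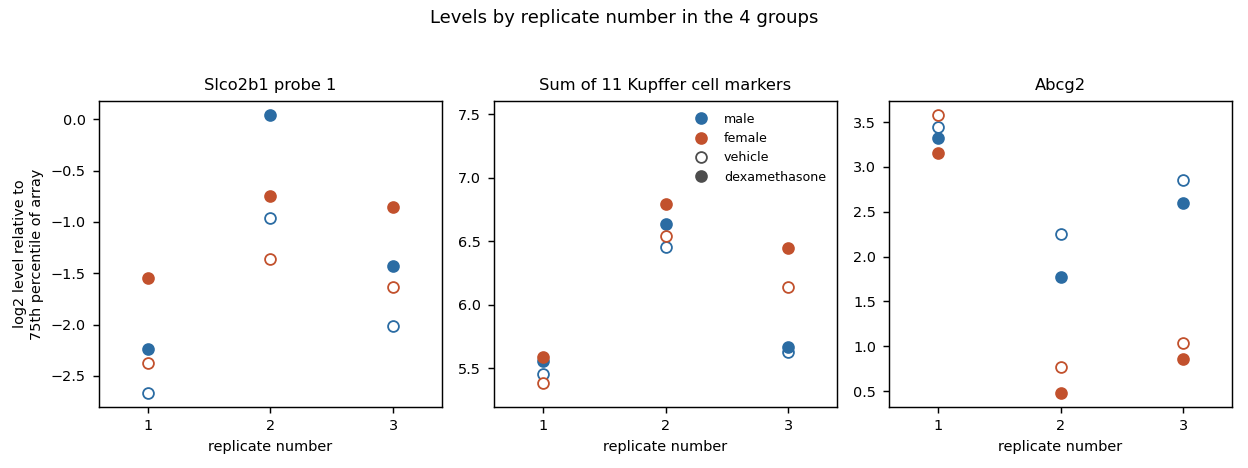
Level by replicate number (horizontal axis) of Slco2b1 probe 1, of the sum of 11 Kupffer cell markers and of Abcg2 (vertical axes, log2 relative to the array's 75th percentile); each point is 1 of the 12 arrays, open for vehicle. Replicate 2 is highest for Slco2b1 probe 1 and the Kupffer sum in all 4 groups, and replicate 1 is highest for Abcg2.

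Abcc2, or Mrp2, exports conjugated bilirubin and glutathione conjugates into bile. The array carries it on 10 spots, of which 7 to 10 were used, with an SD between spots of 0.03 to 0.25. Abcc2 in male vehicle read 5.12, 6.43 and 5.88 and male dexamethasone arrays 6.09, 6.65 and 6.60. Abcc2 in female vehicle read 5.21, 5.70 and 5.91 and female dexamethasone arrays 6.13, 6.57 and 6.74. In females every dexamethasone array was above every vehicle array, while in males the vehicle replicate 2 overlapped the treated ones. In the fit of group means the male difference was 0.64 ± 0.33 (adjusted p = 0.241) and the female one 0.87 ± 0.33 (adjusted p = 0.191). With the pairs as blocks Abcc2 rose 1.55-fold in males (0.64 ± 0.16, adjusted p = 0.047) and 1.83-fold in females (0.87 ± 0.16, adjusted p = 0.0333). The single-slide pairs differed by 0.97 and 0.82, and the smallest difference was that of male pair 2, at 0.22. Blocking on slide in place of the pairs gave 0.28 and 0.56 (adjusted p = 0.807 for both). The sexes differed by -0.20 ± 0.33 in vehicle and 0.03 ± 0.33 in dexamethasone, neither passing (adjusted p = 0.719 and 0.976), and by -0.89 and -0.61 with a slide block (adjusted p = 0.532 and 0.83).

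Of 8365 named genes above background on all arrays, Nr1i2 (the pregnane X receptor, a sensor of drugs and steroids) and Hnf4a (a master factor of hepatocyte genes) had the patterns most like that of Abcc2, with Pearson r of 0.96 and 0.95 over the 12 arrays. Nr1i2 read 1.36 and 1.44 on the replicate 1 arrays of male and female vehicle, where Abcc2 was lowest, and 3.24 on male dexamethasone replicate 2. With the pairs as blocks Nr1i2 rose by 0.91 ± 0.09 for the mean of both sexes (adjusted p = 0.00219). The Hnf4a probe of this likeness is not the one used for Hnf4a in the lists. These points share groups, pairs and slides, and the likeness is a description without a test.

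**Figure D4:**
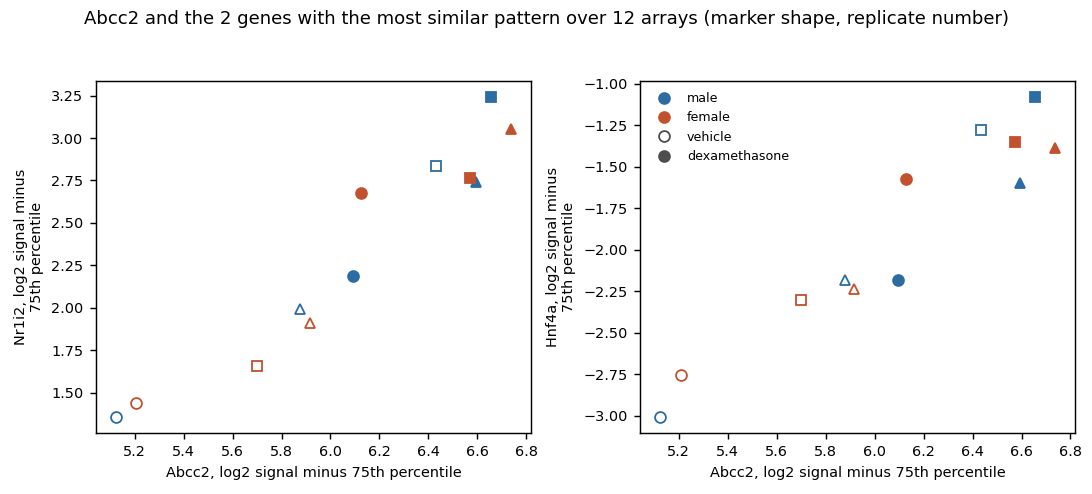
Level of Abcc2 (horizontal axes) against Nr1i2 and Hnf4a (vertical axes), all as log2 signal minus the array's 75th percentile, on 12 arrays; open points are vehicle and the shape gives the replicate number. Abcc2 runs from 5.12 to 6.74 and the points of both genes rise with it, with r of 0.96 and 0.95.

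Abcb1a, or Mdr1a, codes for a P-glycoprotein that pumps bulky lipophilic drugs into bile. Male vehicle arrays read -2.01, -2.28 and -2.62 and male dexamethasone arrays -2.52, -2.70 and -2.25. Female vehicle arrays read -2.27, -2.37 and -2.90 and female dexamethasone arrays -3.28, -3.18 and -2.91. The 3 female dexamethasone arrays were below all others, the nearest being female vehicle replicate 3, and the other 3 groups overlapped. The female response was -0.61 ± 0.22 (adjusted p = 0.179) and the difference of the sexes in dexamethasone -0.63 ± 0.22 (adjusted p = 0.156), so neither passed. Both passed when arrays were weighted by their spread about the group means, taken from these same data (adjusted p = 0.0294 and 0.0282). With a slide block the 2 differences shrank to -0.22 (adjusted p = 0.94) and -0.07 (adjusted p = 0.976). The pairs differed by -0.51, -0.42 and 0.37 in males and -1.01, -0.82 and -0.01 in females.

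Abcg2, or Bcrp, exports sulfate conjugates and many drugs. Male vehicle arrays read 3.45, 2.25 and 2.86 and male dexamethasone arrays 3.32, 1.77 and 2.60. Female vehicle arrays read 3.58, 0.77 and 1.04 and female dexamethasone arrays 3.15, 0.48 and 0.85. Replicate 1 was highest in all 4 groups, and in female cells it stood apart from replicates 2 and 3. The SD between the female arrays was 1.55 in vehicle and 1.45 in dexamethasone, with ranges of 2.80 and 2.67. Ranges that wide occurred in 1.34% of all probes in female vehicle and in 0.349% in female dexamethasone. The male ranges of 1.20 and 1.55 were met by 22.2% and 6.21% of all probes. Because of this spread the difference of the sexes had an interval of -2.88 to 0.77 in vehicle (-1.06 ± 0.83, adjusted p = 0.425). Without female vehicle replicate 1 it was -1.95 (adjusted p = 0.14), and with a slide block the sign turned, to 0.46 (adjusted p = 0.919). The difference in dexamethasone turned likewise from -1.07 to 0.45, and the responses from -0.29 and -0.30 to 0.47 in males and 0.46 in females. These 2 responses use male dexamethasone replicate 1 alone against male vehicle, and female vehicle replicate 3 alone against female dexamethasone. Within pairs all 6 were lower with dexamethasone, by -0.48 to -0.12. The mean of both sexes, -0.29 ± 0.09, did not pass with the pairs as blocks (adjusted p = 0.0705).

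**Figure D5:**
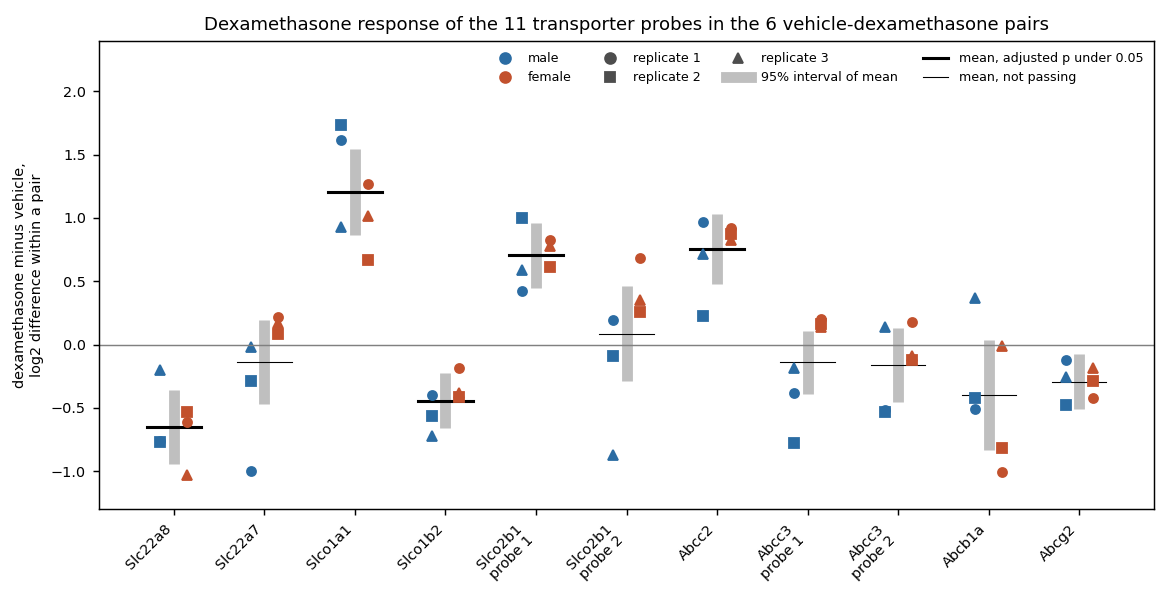
Dexamethasone minus vehicle (vertical axis, log2 difference) of each probe in the 6 pairs of 1 sex and replicate number; horizontal bars are means of both sexes, thick where the adjusted p is under 0.05, and grey bars their 95% intervals. All 6 pairs are above 0 for Slco1a1, Slco2b1 probe 1 and Abcc2, and below 0 for Slc22a8, Slco1b2 and Abcg2.

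Abcc3, or Mrp3, sends glucuronides back to the blood and is known to be high when bile flow is blocked. Its probe 1 read 1.60, 2.33 and 1.67 in male vehicle and 1.21, 1.55 and 1.49 in male dexamethasone. In females the vehicle arrays read 1.14, 1.35 and 1.27 and female dexamethasone arrays 1.34, 1.51 and 1.41. Male vehicle was above every other group without overlap. The sexes differed by -0.61 ± 0.20 in vehicle (adjusted p = 0.0649) and by 0.0055 in dexamethasone (interval -0.43 to 0.44). The vehicle difference passed without male vehicle replicate 1 (adjusted p = 0.0374) and under 4 other settings (adjusted p = 0.00961 to 0.0434), and male vehicle lies on slide 1 alone. Probe 2 read -0.49, 0.72 and 0.02 in male vehicle, -1.01, 0.19 and 0.16 in male dexamethasone, -0.21, -0.12 and 0.01 in female vehicle and -0.03, -0.24 and -0.08 in female dexamethasone. Its groups overlapped in every comparison and its vehicle difference was -0.19 ± 0.35 (adjusted p = 0.753). With a slide block both probes were lower in female vehicle, probe 1 by -0.93 (adjusted p = 0.299) and probe 2 by -1.43 (adjusted p = 0.234), and neither passed.

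In the order of group means, the neighbouring groups overlapped for every probe but 4. Slc22a8 ran from male vehicle over male dexamethasone to female vehicle and female dexamethasone, with a gap between the sexes. The gaps of the others lay above female vehicle for Slco2b1 probe 2, below male vehicle for Abcc3 probe 1 and above female dexamethasone for Abcb1a. Slco1a1 and Slco2b1 probe 1 shared the order female dexamethasone, male dexamethasone, female vehicle, male vehicle, from high to low.

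Among the members themselves, Slco1a1 and Slco2b1 probe 1 (r = 0.84 over 12 arrays), Slco2b1 probe 1 and Abcc2 (r = 0.82) and Slco1a1 and Abcc2 (r = 0.81) ran most alike, and Slco1b2 ran against Slco2b1 probe 1 (r = -0.83). Slc22a7 ran with Abcc3 probe 1 (r = 0.80). Outside the members, the gene nearest to Slc22a8 was listed as Or4f7c (r = 0.98), then Appl1 (0.97). Slc22a7 was nearest to Qprt (0.96) and Abca8a (0.93), Slco1a1 to Ngly1 (0.97) and B3galnt1 (0.96), and Slco1b2 to F3 (0.96) and Crim1 (0.94). Slco2b1 probe 1 was nearest to Gjb1 (0.97) and Saa4 (0.97). Abcc3 probe 1 was nearest to Il11ra1 (0.95) and Zmynd8 (0.94), Abcb1a to Riok3 (0.88) and Mk1 (0.83), and Abcg2 to Arid2 (0.92) and Ubxn8 (0.89).

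Other uptake carriers were listed as 27 genes, of which 22 passed the filter on dim probes. Of all probes tested, 10.2% were called in either direction for the male response, 3.79% for the female one and 13.9% between the sexes in vehicle. The mean of both sexes with pairs as blocks was called for 19.8% of all. In males dexamethasone raised 1 and lowered 3 of the 22. Slc28a2, a sodium-driven nucleoside carrier, rose by 2.11 ± 0.34 (adjusted p = 0.00497), Slco1a4 fell by 0.88 ± 0.16 (adjusted p = 0.00933) and the ileal bile acid carrier Slc10a2 fell by 1.29 ± 0.30 (adjusted p = 0.0245). These 3 calls were lost with a slide block (adjusted p = 0.0911, 0.157 and 0.378). Slc22a3 was the third that fell, but it was not well above background in either male group. In females 1 rose, again Slc28a2 (2.61 ± 0.34, adjusted p = 0.00246, and 0.0676 with a slide block), and 0 fell. For the mean of both sexes with pairs as blocks, 2 rose and 5 fell, and the main bile acid carrier of hepatocytes, Slc10a1, rose by 0.95 ± 0.14 (adjusted p = 0.00633). Slc10a2, Slco1a4 and Slco3a1 had the smallest p among the 5 that fell, by 1.25, 0.66 and 0.71. Between the sexes in vehicle 2 of 22 were higher and 5 lower in females. Slc16a7 (-1.01, adjusted p = 0.0147) and Slc22a4 (-1.07, adjusted p = 0.0283) were among those lower, and Slco1a5 (1.37, adjusted p = 0.0402) and Slco4a1 (1.11, adjusted p = 0.0413) higher, and these 4 lost their calls with a slide block (adjusted p = 0.159 to 0.878).

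Other efflux pumps were listed as 19 genes, of which 17 passed the filter. The shares of all probes called were 10.2% for the male response, 3.79% for the female one and 19.8% for the mean with pairs as blocks. Between the sexes they were 13.9% in vehicle and 3.01% in dexamethasone. In males 1 rose and 2 fell. Abcc4, a basolateral pump of bile acids and nucleotides, fell by 0.92 ± 0.20 (adjusted p = 0.018; -1.35 and 0.0308 with slide as a block). The copper pump Atp7b rose by 0.96 ± 0.27 (adjusted p = 0.0447) with 1 of 3 male vehicle arrays above background, and Abcc9 was called lower with 0 male vehicle arrays and 1 male dexamethasone array above it. Both lost their calls with a slide block (adjusted p = 0.521 and 0.358). In females 1 rose and 0 fell. It was the sterol pump subunit Abcg5, at least 4.66-fold higher (adjusted p = 0.0413), a bound since it was not well above background on any female vehicle array. The call was kept under 12 of 24 alternatives and lost with a slide block (adjusted p = 0.172) and others, and normexp background gave a log2 difference of 0.75, below this bound. For the mean of both sexes with pairs as blocks 4 rose and 5 fell. The bile salt export pump Abcb11 rose by 0.91 ± 0.11 (adjusted p = 0.00349) and the cholesterol pump Abca1 by 1.02 ± 0.11 (adjusted p = 0.00251), while Abcg1, which also exports cholesterol, fell by 1.46 ± 0.11 (adjusted p = 0.00084), as did Abcc4 (-0.86, adjusted p = 0.00847). Between the sexes 1 of 17, Abcc5, was higher in females in vehicle (0.85 ± 0.20, adjusted p = 0.0191) and in dexamethasone (1.00 ± 0.20, adjusted p = 0.0244), and lost both calls with slide as a block (adjusted p = 0.558 and 0.531).

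Regulators and scaffolds of transporters were listed as 26 genes, of which 24 passed the filter. Among all probes, 10.2% were called for the male response and 3.79% for the female one. Between the sexes 13.9% of all were called in vehicle and 3.01% in dexamethasone. In males 3 rose and 0 fell, and in females 1 rose and 0 fell. Ppara, the fatty acid receptor, rose in both and kept its call with slide as a block (adjusted p = 0.0274 and 0.0142). Its differences were 2.28 ± 0.23 in males and 2.35 ± 0.23 in females. Cux2, a factor known for female-biased liver genes, also rose in males, at least 1.5-fold higher (adjusted p = 0.0101) since no male vehicle array was well above background. The Cux2 call was lost with a slide block (adjusted p = 0.0736) and with normexp background, where the log2 difference was 0.18, below this bound. The median difference of the 24 was 0.62 in males and 0.37 in females, against -0.05 and -0.04 over all probes tested. With the pairs as blocks 11 of 24 rose in males (15.8% of all called in either direction) and 5 in females (6.44% of all), and 0 fell in either. For the mean of both sexes 13 rose and 2 fell (19.8% of all). Cebpa, a factor of liver genes, rose by 0.69 ± 0.09 (adjusted p = 0.0053), and Nfe2l2, the NRF2 factor of the oxidative stress response, fell by 0.60 ± 0.11 (adjusted p = 0.0159), as did Foxa3 (-0.37, adjusted p = 0.0311). Between the sexes in vehicle 2 of 24 were higher and 1 lower in females, with Cux2 at least 1.31-fold higher (adjusted p = 0.0172, and 0.191 with a slide block; the sign turned with normexp background, to -0.0004) and the membrane scaffold Rdx lower by 0.72 ± 0.18 (adjusted p = 0.0271; 0.282 with slide as a block). In dexamethasone 0 of 24 passed.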

How the data were processed

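Agilent 1-colour rat arrays were read from the scanner files, in which the authors deposited a processed intensity per spot from Agilent Feature Extraction 9.5 (per the submitters' processing notes), with probe positions on rn3 per the file headers. Control and outlier spots were left out and spots of one probe averaged. Levels are log2 of that intensity minus the array's 75th percentile. Probes well above background on every array of at least 1 group were kept, which left 30979. limma 3.58.1 in R 4.3.3 fitted the 4 group means over all of these, two-sided, with Benjamini-Hochberg adjustment over all probes and a threshold of 0.05. It was tested on simulated data. Vehicle and dexamethasone arrays of the same sex and replicate number were taken as pairs, though the sample titles state no pairing. The ground was that deviations of same-numbered arrays correlated at 0.27 to 0.459 in these same data. A fit with the 6 pairs as blocks, added after the data were seen, is given beside the fit of group means. Arrays number 3 per group, which limits precision. All 9 transporters are named, and of the other lists up to 3 called genes with the smallest p in each direction and comparison, except 2 genes that are not reported here. Gene names follow RefSeq tables. The members and the lists (other uptake, other efflux, regulators, and markers of hepatocytes, Kupffer cells, cholangiocytes, endothelial, stellate and lymphocyte cells) were chosen with earlier results of these data known. Alternatives were other scalings, background corrections, filters, blocks, weights and left-out arrays.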

Additional observations from a re-analysis of the deposited data

Results flagged for a closer look

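Slc22a7 was lower with dexamethasone in all 3 male pairs and higher in all 3 female pairs. The female response minus the male one was 0.593, which did not pass in limma's fit of group means (adjusted p = 0.8) or with the pairs as blocks (adjusted p = 0.352). Abcc3 probe 1 likewise was lower in all 3 male pairs and higher in all 3 female pairs, a difference of 0.6171 (adjusted p = 0.428, and 0.233 with the pairs as blocks), while Abcc3 probe 2 differed by 0.29 (adjusted p = 0.891). Both patterns were noticed among 11 probes, and the share of all probes with such a pattern is not given here. Only male pair 1 and female pair 3 lie on a single slide. In the other pairs a response and a slide difference cannot be told apart.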

How the results depend on the processing

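Over 1408 alternative values of the member probes, 0 called values changed sign, 7 lost their call and 29 gained one, and 85 values past no threshold differed in sign. The number of member probes called in males, 0 as reported, was 2 with normexp background, 1 with no filter on dim probes, 1 with the replicate block over both sexes, 4 with the replicate block within sex, and 0 to 1 with an array left out (1, Slco1a1, without male dexamethasone replicate 1). In females, 0 as reported, it was 1 with the replicate block over both sexes, 1 with only the groups compared, 3 with the replicate block within sex and 3 with array weights. Between the sexes in vehicle, 1 as reported, it was 2 with normexp, 2 with no filter, 2 with probes above background on all 12 arrays, 2 with the replicate block, 0 with slide as a block, and 1 to 3 with an array left out (3 without male vehicle replicate 1). In dexamethasone, 1 as reported, it was 0 with slide as a block and 2 with array weights. For the mean of both sexes, 5 as reported, it was 3 to 6 with a pair left out (3 without female replicate 1 or 3, 4 without female replicate 2, 6 without male replicate 1). Cux2 between the sexes in vehicle turned to -0.0004 with normexp. Among the member probes the pairing changed no other call. Over all probes the calls in males, females, response difference, vehicle sexes and dexamethasone sexes were 3159, 1173, 33, 4318 and 932. They were 599, 288, 4, 186 and 36 with slide as a block, 4621, 794, 0, 13784 and 1095 with normexp, and 12563, 795, 7416, 14159 and 594 with no filter. Array weights gave 1204, 5330, 128, 2420 and 4759. Fitting only the groups compared gave 335 in males, 3070 in females and 970 between the vehicle sexes, quantile normalization 630 in females and 320 for the response difference, and probes above background on all 12 arrays 592 and 4. The replicate block within sex gave 4905, 1996 and 1 for the responses, and within slide 1 the male count was 0. With an array left out, counts ran from 1428 to 4146, 333 to 1565, 0 to 651, 1973 to 5191 and 203 to 1353, each lowest without an array of the groups compared. Normexp shifted the median of all probes by -0.24 in males and -0.34 between the sexes in vehicle. Signal over background was lowest in male vehicle.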

Other observations

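Relatives of the members lie beside them on rn3. Within 500000 bp of the Slc22a8 probe, Slc22a6 (the related kidney carrier Oat1, 11891 bp away) was well above background on 4 of 12 arrays and did not pass the filter on dim probes. Slc22a25 (163199 bp away) was lower in female vehicle by 0.86, which did not pass (adjusted p = 0.105), with 0 male vehicle arrays above background. Nearest to Slco1a1 lie 2 probes of Slco1a3, 60249 and 70709 bp away. They were well above background on 0 and 6 of 12 arrays and did not pass the filter. Farther off lie Slco1a6, 204142 bp away, Slco1a5, 300870 bp away, and Slco1b2, 381900 bp away. In all 6 pairs Slco1b2 was lower with dexamethasone and Slco1a1 higher, but neither response passed in the fit of group means. Slco1a5 was higher in female vehicle by 1.37 (adjusted p = 0.0402), with 1 male vehicle array above background, and lost this call with slide as a block (adjusted p = 0.878). Slco1c1 was above background on 0 arrays.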
